A study of Homo sapiens with 18 samples.

Results

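H3K4me3 was compared between V16D/CTL and V16D/H19 in the 687 broad domains that carried this mark without H3K27me3. V16D is a castration-resistant prostate cancer line derived from LNCaP. V16D/CTL cells carried a control lentiviral vector, and V16D/H19 cells carried a lentivirus that overexpressed the long noncoding RNA H19 from a CMV promoter. Both groups were grown in medium with serum, each had 3 replicates, and each replicate was immunoprecipitated for H3K4me3 and for H3K27me3 beside its own input. To choose the domains, the peaks of the 6 H3K4me3 lists that shared at least 1 base were merged into 25276 regions on chromosomes 1 to 22 and X, of which 15760 held a peak in all 6 lists. A broad domain was such a region with a merged width of at least 4000 bases and no overlap with any peak of the 6 H3K27me3 lists. There were 711 regions of that width, and 24 of them overlapped H3K27me3. Width, presence in every library and absence of H3K27me3 were thus the measured values the domains were selected on. These traits are described without a test. The length that each library's peaks cover was compared between the groups, and the choice by width limits how that can be read. The merged width is built from the lengths that the peaks of both groups cover, so a domain can owe its place to the longer group, and 448 of the 687 (65.2%) reached 4000 bases in the merged peaks of each group alone.

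H3K4me3 is the trimethylation of lysine 4 on histone H3. It is laid down by the SET1 and MLL (KMT2) complexes around active start sites, where CpG-rich DNA recruits them, and in most genes it spans only a few nucleosomes on each side of the start. Domains that reach far into the gene are known from other cells to sit on genes of cell identity and on highly transcribed genes. H3K27me3 is placed by Polycomb repressive complex 2 (EZH2, SUZ12 and EED), and promoters with both marks are called bivalent, so the domains described here are the non-bivalent end of the broad class.

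Promoter sequences are shown for 5 genes on which the results below turn. FOXA1 and EHF, transcription factors of luminal epithelium, and ACSL3, an acyl-CoA synthetase of lipid metabolism, lay in some of the widest domains. EPHA6, a receptor tyrosine kinase for ephrins, and GASK1B, a Golgi-associated protein, lay in domains whose covered length differed between the groups. Each run is the 300 bases from 250 before to 50 after a RefSeq start (GRCh38.p14), read 5′ to 3′ along the gene, with CpG dinucleotides in capitals. FOXA1 is at chr14:37595200-37595499 on the minus strand, EHF at chr11:34624007-34624306 on the plus strand, ACSL3 at chr2:222860786-222861085 on the plus strand, EPHA6 at chr3:96814344-96814643 on the plus strand and GASK1B at chr4:158172976-158173275 on the minus strand.
FOXA1: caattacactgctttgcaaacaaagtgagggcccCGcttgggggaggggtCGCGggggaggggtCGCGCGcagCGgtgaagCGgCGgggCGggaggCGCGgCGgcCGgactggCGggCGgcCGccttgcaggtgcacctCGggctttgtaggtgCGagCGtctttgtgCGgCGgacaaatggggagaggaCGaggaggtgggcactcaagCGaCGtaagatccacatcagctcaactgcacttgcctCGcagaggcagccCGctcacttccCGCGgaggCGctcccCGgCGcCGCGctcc
EHF: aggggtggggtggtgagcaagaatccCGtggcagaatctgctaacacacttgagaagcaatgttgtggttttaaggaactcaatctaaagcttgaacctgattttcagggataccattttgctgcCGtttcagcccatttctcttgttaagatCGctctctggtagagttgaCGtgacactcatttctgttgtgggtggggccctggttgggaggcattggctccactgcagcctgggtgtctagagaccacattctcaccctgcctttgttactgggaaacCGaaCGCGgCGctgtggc
ACSL3: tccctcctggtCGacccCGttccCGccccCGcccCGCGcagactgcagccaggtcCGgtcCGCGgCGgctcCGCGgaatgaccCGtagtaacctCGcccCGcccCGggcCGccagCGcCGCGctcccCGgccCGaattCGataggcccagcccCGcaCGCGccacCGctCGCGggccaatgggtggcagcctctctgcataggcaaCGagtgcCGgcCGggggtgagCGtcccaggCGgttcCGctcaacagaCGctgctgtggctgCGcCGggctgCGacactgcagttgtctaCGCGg
EPHA6: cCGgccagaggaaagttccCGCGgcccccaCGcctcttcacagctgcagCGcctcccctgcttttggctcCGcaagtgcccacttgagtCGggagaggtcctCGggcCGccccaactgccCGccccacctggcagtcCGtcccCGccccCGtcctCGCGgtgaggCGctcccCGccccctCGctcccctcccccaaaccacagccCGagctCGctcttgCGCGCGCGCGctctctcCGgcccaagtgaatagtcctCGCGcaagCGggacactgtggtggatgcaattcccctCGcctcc
GASK1B: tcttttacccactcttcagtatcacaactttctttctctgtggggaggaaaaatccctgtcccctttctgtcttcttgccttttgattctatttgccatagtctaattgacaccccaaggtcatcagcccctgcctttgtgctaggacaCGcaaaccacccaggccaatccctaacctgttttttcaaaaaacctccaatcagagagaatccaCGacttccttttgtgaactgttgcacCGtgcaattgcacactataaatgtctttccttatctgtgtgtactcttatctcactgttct
The ACSL3 run held 41 CpG dinucleotides and 74.0% G and C, FOXA1 held 34 CpG and EPHA6 held 30. EHF held 8 CpG and GASK1B held 3, at 43.7% G and C, so the density of CpG differed widely among these starts. The EHF run is at an alternative RefSeq start inside the gene and its domain, and the others are at the gene's 5′ end. The promoter at the EHF 5′ end is not shown.

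As a class, promoters in the domains had the CpG content of other marked promoters. RefSeq promoters were matched for 626 of the 749 protein-coding genes that start in a domain. Over the 984 promoters of protein-coding genes inside the domains, the median was 27 CpG per 300 bases (quartiles 19 and 35), and over the 10853 in narrower H3K4me3 regions without H3K27me3 it was also 27 (20 and 35). All 22131 protein-coding promoters had a median of 21. Short motifs were searched on both strands. TATAAA, the TATA box, was in 7.01% of the promoters inside domains, 4.20% of those in narrower regions and 9.46% of all promoters. CCGGAAG, an ETS-type motif, was in 13.9%, 21.3% and 12.8% of the same sets, and CCAAT was in 40.3%, 35.7% and 34.6%. GGGCGG, the GC box, was in 71.5%, 74.0% and 56.3%. The forkhead letters TGTTTAC stood in 2.54%, 2.24% and 2.85%. These shares are a description, since several promoters can belong to the same gene or domain.

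Some microRNA hairpins also lay inside the domains, 21 in 19 domains. A domain of 4784 bases at chr12:6960769-6965552 held MIR200C and MIR141, which keep epithelial cells from mesenchymal change by targeting ZEB1 and ZEB2. A domain of 4497 bases at chr17:59836852-59841348, inside VMP1, held MIR21, a microRNA raised in many tumours. Their main mature forms from RefSeq are given with the seed (bases 2 to 8) in capitals, since targets are read through it.
hsa-miR-200c-3p: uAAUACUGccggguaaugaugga
hsa-miR-141-3p: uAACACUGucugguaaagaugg
hsa-miR-21-5p: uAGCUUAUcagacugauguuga
The seeds of the 3 differ from each other. The domain of MIR200C and MIR141 was covered by peaks over 4270, 3899 and 4364 bases in V16D/CTL replicates 1 to 3 and over 4059, 4528 and 3707 bases in V16D/H19. The domain of MIR21 was covered over 3966, 4341 and 3844 bases in V16D/CTL and over 4266, 4126 and 4214 bases in V16D/H19. In both domains the groups overlapped.

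The widths ran without a break from narrow to broad. Domain width had a median of 4659 bases (quartiles 4236.5 and 5444.0), against 2048 bases in the 13211 narrower regions without H3K27me3. Of the domains, 242 (35.2%) reached 5000 bases, 28 (4.08%) reached 8000 and 14 (2.04%) reached 10000. Together they were 3.53 Mb wide. The 3 narrowest domains, each of 4000 bases, were at FUBP1 and DNAJB4, at YAP1 and at RALY. The 3 regions just below the limit were at ZNF592 (3998 bases), CYB5D1 (3997) and SRP54 (3996), so the limit separates neighbours that differ by a few bases.

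**Figure D1:**
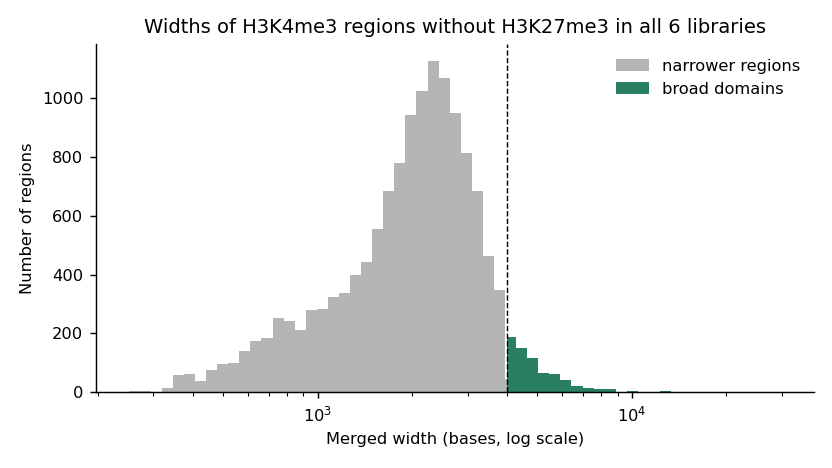
Number of H3K4me3 regions without H3K27me3, held by all 6 libraries, by merged width in bases on a log scale. The 687 broad domains (green) lie right of the dashed line at 4000 bases, as the tail of the 13211 narrower regions (grey), whose median was 2048 bases.

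The 10 widest domains included FOXA1, EHF and HOXB13 of the luminal prostate list. The widest, 26334 bases at chr22:46060199-46086532, held the start of MIRLET7BHG, the host transcript of let-7a-3 and let-7b. Its peaks covered 24931, 24377 and 24228 bases in V16D/CTL, against 23457, 24035 and 22263 bases in V16D/H19, which left the V16D/CTL libraries above the V16D/H19 libraries with no overlap. The second, 17148 bases at chr6:110872878-110890025, lay inside AMD1, which encodes a decarboxylase of polyamine synthesis, at an alternative RefSeq start and outside its 5′ end. It was covered over 15701, 15284 and 15730 bases in V16D/CTL and over 16950, 16024 and 16344 bases in V16D/H19, the reverse order. Neither of these 2 domains was called in the fit described below (limma, adjusted p = 0.87 and 0.81). The domain of FOXA1, the pioneer factor that opens chromatin for the luminal programme, was 14667 bases wide at chr14:37587705-37602371 and also held the start of TTC6. FOXA1 was covered over 13997, 14514 and 14041 bases in V16D/CTL and over 14013, 14546 and 12734 bases in V16D/H19. V16D/H19 replicate 3 was lowest there, as it was at EHF, and the other libraries did not separate by group.

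A domain without any annotated start, 13862 bases at chr21:16317790-16331651, lay inside MIR99AHG, the host transcript of miR-99a, let-7c and miR-125b-2. The EHF domain (13838 bases, chr11:34619782-34633619) was covered over 13277, 13709 and 13431 bases in V16D/CTL and over 13751, 13427 and 11594 bases in V16D/H19. TNRC18 followed at chr7:5417798-5430449 with 12652 bases, and then 12546 bases at chr17:48717774-48730319 with the starts of PRAC1, PRAC2 and HOXB13, the homeobox factor of the prostate. ACSL3 had 12436 bases at chr2:222859795-222872230. A domain of 12148 bases at chr15:96329574-96341721 held an alternative start of NR2F2, an orphan nuclear receptor, and the MIR1469 hairpin. The tenth, 11487 bases at chr12:64608481-64619967, held a start of RASSF3 and that of its divergent transcript RASSF3-DT. Of these 10, peaks of all 6 libraries shared between 8407 bases at ACSL3 and 19929 bases at the MIRLET7BHG domain.

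Most domains were at protein-coding starts. The 5′ end of at least 1 protein-coding RefSeq gene lay in 580 of the 687 domains (84.4%), against 63.1% of the 13211 narrower regions. A noncoding start alone was in 41 domains, another RefSeq start alone in 39, and 27 had no annotated start, 26 of them inside a gene. The domains held 749 protein-coding 5′ ends, and 161 domains (23.4%) held 2 or more, against 8.75% of the narrower regions. The most any domain held was 3 protein-coding starts, in 8 domains. Beside PRAC2, PRAC1 and HOXB13, the widest of these were CDK5, SLC4A2 and a predicted gene (6875 bases) and the histone genes H3C4, H2AC7 and H2BC7 (6113 bases). The widest domains with no annotated start were the one inside MIR99AHG, one inside PPFIA2 (10954 bases, chr12:81377825-81388778), one inside KDM6A (8889 bases, chrX:44948158-44957046), one inside GSE1 (6417 bases) and one inside BCOR (5904 bases). KDM6A, an H3K27 demethylase, also had a domain of 8812 bases at its start and another of 5473 bases between them.

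Domains extended mainly into the gene. Of the 419 domains with exactly 1 protein-coding 5′ end, the median reach was 1408 bases upstream (quartiles 1018.0 and 1913.5) and 3266 bases downstream (2675.5 and 4015.0). In the 7174 narrower regions with exactly 1 such start the medians were 759 and 1438 bases. The longer reach of the domains follows from the width limit. The downstream side was the longer one in 88.3% of both sets, so the share that leaned downstream did not differ at this rounding. The highest summit, as the median over the 6 libraries, lay at a median of 254 bases into the gene in domains and 201.5 bases in narrower regions. It was downstream of the start in 84.7% of domains and 91.9% of narrower regions. Of the 419 genes, 21 lay wholly within the downstream reach of their domain.

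Domains were seldom side by side. Of the 687, 79 (11.5%) were within 50 kb of another, counted along chains, and 6 groups held 3 or more. The largest had 4 domains over 52.4 kb inside MIR99AHG. Others were 3 domains over 34.9 kb at NFIX, a nuclear factor I gene, 3 over 46.1 kb at the MIRLET7BHG locus and 3 at the chromosome 6 histone cluster. The share of the 15760 regions that were broad domains ran from 2.18% on chromosome 7 to 8.38% on chromosome 21.

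H3K27me3, whose absence was part of the choice, was also far from the domains. The nearest H3K27me3 peak of any list lay at a median of 121.8 kb from a domain (quartiles 51.3 and 252.1 kb) and 72.9 kb from a narrower region without the mark. It lay within 5 kb of 12 domains (1.75%) and of 1268 narrower regions (9.60%). The share of regions with H3K27me3 fell with width, from 21.0% below 1000 bases to 4.81% at 2000 to 3000 bases and 2.17% at 3000 to 4000 bases, and was 3.05% at 4000 to 5000 and 3.97% from 5000 bases. The 24 equally wide regions that carried it included PCDH7 (11631 bases), IGF1R, NR3C2 and DUSP6. Their overlapping H3K27me3 peaks were weak, with a median highest fold of 3.87 over input, and the strongest in 23 of them had a −log10 q below 5. Only NR4A3 held a stronger one. The H3K27me3 lists held 54951 to 72171 peaks.

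Being chosen for width, the domains had to make up a larger share of the covered bases than of the regions. The H3K4me3 lists held 19968 to 21859 peaks, and 10.3% to 10.7% of the bases each list covered lay in the 687 domains. A library's peaks covered a median of 88.8% to 93.4% of a domain's merged width. The highest fold over input, the enrichment MACS2 gives to a peak, had a median over the domains of 48.8 to 55.4 by library, and the ratio of this median to that of all other regions held by the 6 lists was 1.36 to 1.41. Height levelled off where width did not. The median fold was 9.36 in regions below 1000 bases, 34.4 at 1000 to 2000, 49.97 at 2000 to 3000, 53.1 at 3000 to 4000, 53.6 at 4000 to 5000 and 52.4 from 5000 bases.

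The question for the groups was whether H19 altered the breadth, the height or the continuity of these domains. Total covered length was 3.23, 3.17 and 3.18 Mb in V16D/CTL replicates 1 to 3 and 3.21, 3.24 and 3.05 Mb in V16D/H19. The groups overlapped, with means of 3.19 ± 0.0357 Mb and 3.17 ± 0.0981 Mb (SD, n = 3 each, two-sided exact permutation p = 0.9). V16D/H19 replicate 3, which also had the shortest list, was the lowest, and without it the difference turned to 0.0298 Mb higher in V16D/H19 (exact p = 0.3). The V16D/CTL libraries had a median highest fold of 52.6, 50.6 and 48.8, and the V16D/H19 libraries one of 50.8, 55.4 and 51.4. These means, 50.7 ± 1.93 and 52.5 ± 2.52 (SD, n = 3 each, exact permutation p = 0.4), differed by less than the spread between libraries. Relative to other regions, height was 1.38 ± 0.0166 and 1.39 ± 0.0234 (SD, n = 3 each, exact permutation p = 0.9). With 3 libraries against 3 the smallest p this test can give is 0.1, and the labels do not say what separates the replicates beyond the number, while the study's methods call them biological.

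Continuity, read only as the number of peaks per domain, was the measure in which the groups did not overlap. The mean number of peaks per domain was 1.48, 1.44 and 1.46 in V16D/CTL, against 1.52, 1.54 and 1.60 in V16D/H19. All 3 V16D/H19 libraries were above all 3 V16D/CTL libraries, with means of 1.46 ± 0.0197 and 1.55 ± 0.0420 (SD, n = 3 each, exact permutation p = 0.1, the smallest possible). In the other regions held by all lists the mean was 1.07 to 1.09 in every library and the groups overlapped (exact permutation p = 0.6, n = 3 each). The excess of the domains over the other regions was 0.373 ± 0.0147 peaks in V16D/CTL and 0.473 ± 0.0411 in V16D/H19 (exact permutation p = 0.1, n = 3 each). Because the other regions hardly varied between libraries, this repeats the difference above and is no second result. A domain was a single peak in 442, 464 and 464 cases in V16D/CTL and in 434, 423 and 409 in V16D/H19. The separation moved with the length of the lists. When all lists were cut to 19968 peaks, V16D/CTL had 1.41, 1.44 and 1.43 peaks per domain and V16D/H19 had 1.42, 1.42 and 1.60, so that only V16D/H19 replicate 3 stood above the V16D/CTL libraries (exact permutation p = 0.8, n = 3 each).

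A domain is called whole where a library had 1 peak in it and divided where it had more, whatever length the peaks covered. A domain was whole in all 6 libraries in 207 cases (30.1%) and divided in all 6 in 60. It was whole in all 3 V16D/CTL and divided in all 3 V16D/H19 libraries in 11 cases, and the reverse held for 1. These 2 patterns were not counted over all regions, so no excess is read from them. Every V16D/H19 library had more peaks than every V16D/CTL library in 14 domains (2.04%) and in 0.247% of all 15760 regions. Every V16D/H19 library had fewer in 2 domains (0.291%) and in 0.178% of all regions. These shares cannot be compared, because 76.8% of the other regions were a single peak in all 6 libraries. The 14 included ASPH and ZNF703, and ZNF703, also among the 11, met the width limit through V16D/H19 only. At both, the further V16D/H19 peaks lay deeper in the gene than the end of every V16D/CTL peak. The higher count there went with a longer reach and was no break in the V16D/CTL peak. They also included SIN3A, a scaffold of histone deacetylase complexes, EP300, a histone acetyltransferase, CTBP1, a corepressor, and TRAF4, an adaptor of receptor signalling. SIN3A and CTBP1 were each 1 peak in every V16D/CTL library. SIN3A was 2 peaks in every V16D/H19 library, and EP300 was 2, 2 and 3 peaks there against 1 in each V16D/CTL library. At EP300 the covered length was 4259, 4108 and 4475 bases in V16D/CTL, against 4133, 3860 and 4023 in V16D/H19, and the groups overlapped.

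**Figure D2:**
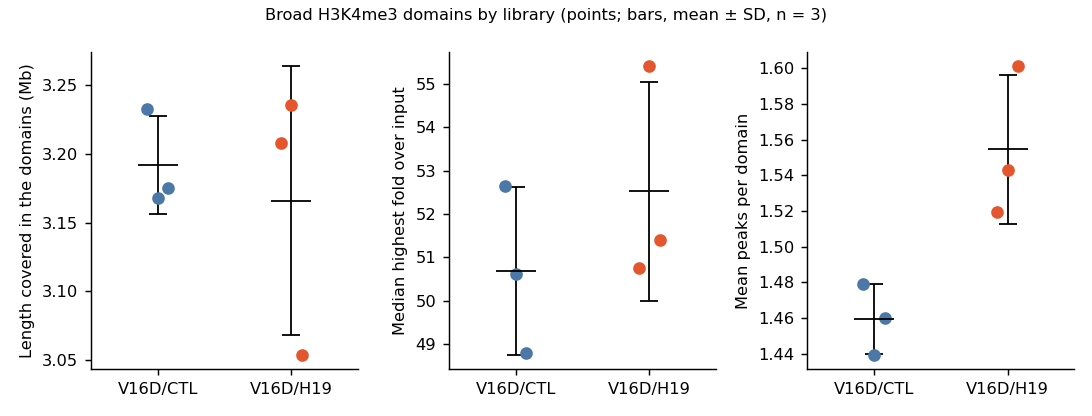
Each point is 1 H3K4me3 library and the bars give mean ± SD of 3. The panels show the length covered in the 687 domains (Mb), the median highest fold over input and the mean number of peaks per domain, and the groups overlap in the first 2 and not in the third (1.44 to 1.48 against 1.52 to 1.60).

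To test each domain, limma was fitted across the 15760 regions held by all lists, on log2 of the highest fold and on log2 of the covered length, with Benjamini-Hochberg adjustment over all regions. For the highest fold, limma called 0 domains, and it called 0% of all regions. At an unadjusted p under 0.05 there were 33 domains, 4.80%, against 6.66% of all regions. In simulated data with the spread of these libraries, the same fit recovered 11% of regions changed by 1 and 69% of those changed by 2 on the log2 scale, so most changes of the smaller size would be missed with 3 libraries a group. Groups did not overlap in the highest fold, with V16D/H19 higher, in 41 domains (5.97%, all regions 6.81%), and lower in 30 (4.37%, all regions 4.64%), near the background on both sides.

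Covered length gave 5 calls, 3 longer and 2 shorter in V16D/H19, or 0.728% of the domains, where the call was made for 0.203% of all regions (0.121% longer, 0.0825% shorter). These shares cannot be compared, because the width limit favours domains that are long in at least 1 group. The V16D/CTL peaks alone gave a longest merged run of 2666 bases at ZNF703 and 2916 at GASK1B, and the V16D/H19 peaks alone gave 3263 bases inside FDFT1, so these 3 were chosen through the group in which they are longer and had to differ. Their values are given below without a test. Among the 448 domains that reached 4000 bases in each group alone, a choice made after seeing the data, 2 were called, EPHA6 and ASPH. At an unadjusted p under 0.05 there were 107 of the 687 domains, and 9.39% of all regions, with the same limit on reading them.

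The counts of domains without overlap between the groups carry the same limit, and the cause of their differences was not tested. V16D/H19 was longer without overlap in 59 of the 687 domains (8.59%) and in 7.8% of all regions, and it was shorter in 83 (12.1%) and in 6.24%. Of the 94 domains that reached 4000 bases in V16D/H19 alone, 24 were longer there without overlap and 1 was shorter. Of the 103 that did so in V16D/CTL alone, none was longer in V16D/H19 without overlap and 35 were shorter. In the 448 domains that reached it in each group, 32 (7.14%) were longer and 46 (10.3%) shorter. The median difference was −0.01 on the log2 scale over the domains and 0.01 over all regions, and 90% of domains lay between −0.20 and 0.17.

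The 3 domains that were longer in V16D/H19 were at ZNF703, GASK1B and ASPH. ZNF703 encodes a transcriptional corepressor of luminal epithelium. Its domain (4823 bases, chr8:37694831-37699653) was covered over 2520, 2493 and 2567 bases in V16D/CTL and over 4199, 4375 and 4201 bases in V16D/H19. All V16D/H19 libraries were far above all V16D/CTL libraries. The V16D/CTL peaks ended 1616 to 1715 bases into the gene and the V16D/H19 peaks 3404 to 3872 bases into it, while the upstream ends of the groups overlapped. The highest fold there was 84.4, 34.1 and 59.3 in V16D/CTL, against 56.9, 59.9 and 57.3 in V16D/H19, without separation.

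The GASK1B domain (4451 bases, chr4:158168659-158173109) was covered over 2287, 2175 and 2227 bases in V16D/CTL and over 3719, 4005 and 4049 bases in V16D/H19. It was a low domain, with a highest fold of 11.1, 5.9 and 11.8 in V16D/CTL, against 18.8, 14.5 and 12.9 in V16D/H19. Those groups did not overlap, and height was not called (limma, adjusted p = 0.76). Its peaks started near the gene's 5′ end and ended 2525 to 2831 bases into it in V16D/CTL and 3915 to 4366 bases in V16D/H19. This is the start with 3 CpG in the sequence printed above.

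ASPH encodes an aspartyl hydroxylase of the endoplasmic reticulum. Its domain (5357 bases, chr8:61710082-61715438) was covered over 4042, 3902 and 3621 bases in V16D/CTL and over 5150, 5036 and 4714 bases in V16D/H19. The groups did not overlap, with a log2 difference of 0.37 ± 0.06 (SE, limma, adjusted p = 0.0449). The longest merged run was 4042 bases in V16D/CTL alone, just past the width limit, and 5313 in V16D/H19. Peaks reached 2834 to 3195 bases into the gene in V16D/CTL and 4328 to 4510 bases in V16D/H19. Over 12 other settings its adjusted p ran from 0.0125 to 0.493 and it passed in 3, among leave-one-out fits only in that without V16D/H19 replicate 3.

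EPHA6 reached the width limit in each group alone, with merged runs of 10550 bases in V16D/CTL against 5913 in V16D/H19, and had the largest fall of all domains. Its domain (10550 bases, chr3:96812216-96822765) was covered over 9922, 10070 and 10169 bases in V16D/CTL and over 5657, 6280 and 5547 bases in V16D/H19, a log2 difference of −0.79 ± 0.06 (SE, limma, adjusted p = 0.00107). The V16D/H19 libraries lacked the outermost bases on both sides. Peaks spanned from 2237 to 2378 bases upstream to 7910 to 8172 bases downstream of the start in V16D/CTL, and from 1782 to 1826 bases upstream to 4074 to 5897 bases downstream in V16D/H19. Covered in every V16D/CTL and in no V16D/H19 library were 2888 bases, the longest stretch of 1129 bases lying at chr3:96818681-96819809, 4087 to 5215 bases into the gene. Between them, 5053 bases including the start were covered in all 6 libraries. The highest fold was 62.4, 54.2 and 32.5 in V16D/CTL, against 31.9, 54.3 and 35.4 in V16D/H19, which overlapped.

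The other shorter domain (4408 bases, chr8:11801642-11806049) lay inside FDFT1, the gene of squalene synthase, and held no annotated start. It was covered over 4331, 3910 and 3893 bases in V16D/CTL and over 3088, 3263 and 3101 bases in V16D/H19. Groups did not overlap.

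**Figure D3:**
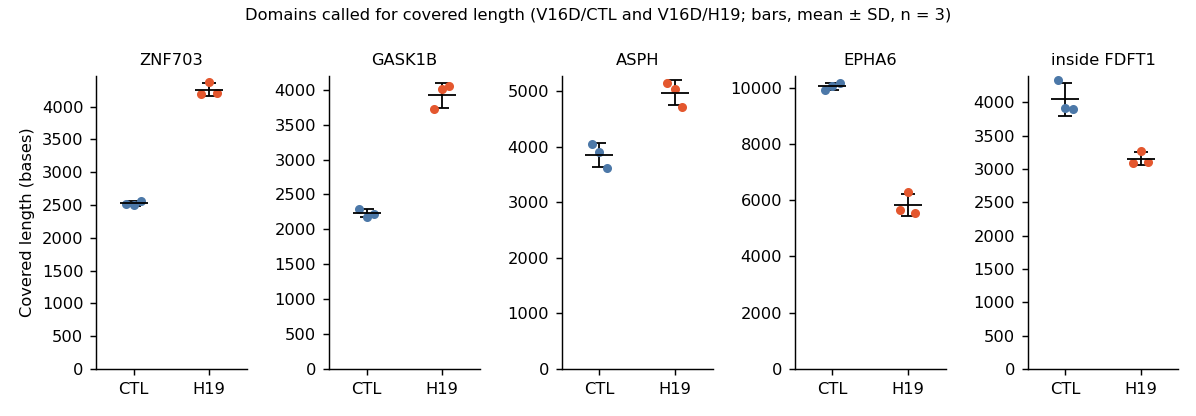
Bases covered by H3K4me3 peaks in each library (points, with mean ± SD of 3) in the 5 domains called for covered length, of which ZNF703, GASK1B and the one inside FDFT1 met the width limit through 1 group only, each panel from 0. V16D/H19 is above V16D/CTL without overlap at ZNF703, GASK1B and ASPH, and below it at EPHA6 and inside FDFT1.

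**Figure D4:**
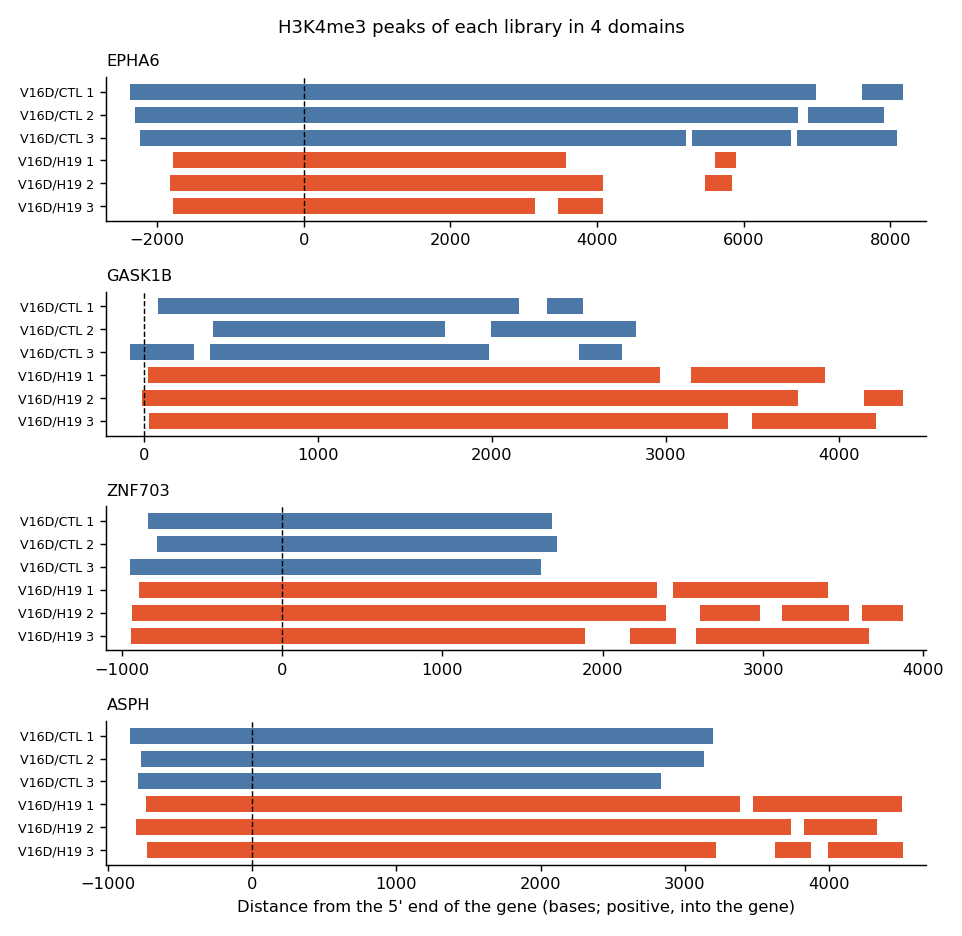
H3K4me3 peaks of the 6 libraries as bars, against distance in bases from the gene's 5′ end (dashed, positive into the gene). In V16D/H19 the EPHA6 peaks end 4074 to 5897 bases into the gene rather than 7910 to 8172, and at GASK1B, ZNF703 and ASPH they reach farther into the gene than in any V16D/CTL library.

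Among the 10 widest domains, the one at ACSL3 had the largest fall, without a call. It was covered over 12217, 11648 and 12092 bases in V16D/CTL and over 9806, 10510 and 9046 bases in V16D/H19, a log2 difference of −0.29 ± 0.07 (SE, limma, adjusted p = 0.166), with no overlap between the groups. Covered in every V16D/CTL and no V16D/H19 library were 902 bases, with a longest stretch of 479 bases at chr2:222871196-222871674. Inside KDM6A, the domain of 8889 bases was covered over 7772, 6791 and 7318 bases in V16D/CTL and over 5273, 6558 and 4463 bases in V16D/H19 (limma, adjusted p = 0.243). Its highest fold was 29.1, 23.3 and 26.97 in V16D/CTL, against 10.7, 12.6 and 10.8 in V16D/H19, the groups far apart and the call not passed (limma, adjusted p = 0.42). The domain at the KDM6A start was covered over 8714, 8148 and 8287 bases in V16D/CTL and over 8406, 8629 and 8369 bases in V16D/H19, and there the groups overlapped.

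The authors' table of H3K4me3 sites gave a second reading, based on normalized reads rather than peak ends. It lists sites selected on the authors' own comparison of the same libraries, so the directions below describe that selection and are no independent evidence. Only regions that held a single listed site were counted, here and below, and regions with several were left out. On this count, a listed site lay in 194 domains. Its mean concentration, the authors' log2 of the mean normalized read count per group, was lower in V16D/H19 in 175 domains (25.5%), where this held for 8.34% of all regions. It was higher in 19 (2.77%), where this held for 2.02%. The domains are wider than most regions and offer more bases for a site, and these shares were not compared at equal width. The median difference between the authors' means was −0.24 over the 194 domains and −0.29 over the 1632 regions with a single site. Without H3K27me3, the share of regions with a single site rose with width, from 4.14% below 1000 bases to 8.62%, 9.56%, 13.9%, 23.8% and, from 5000 bases, 36.4%. Sites lower in V16D/H19 were 84.0% to 90.9% of those listed in every width class, so the share listed changed with width more than the direction did.

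**Figure D5:**
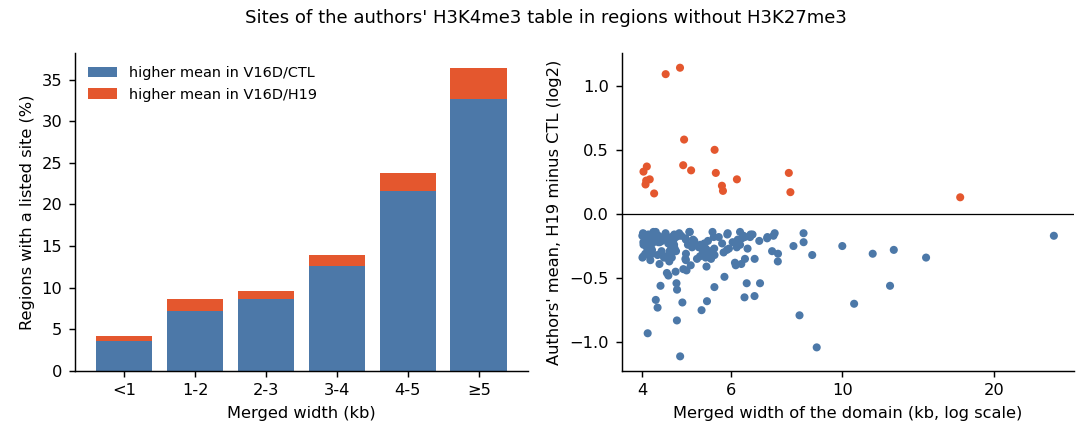
Left, percentage of H3K4me3 regions without H3K27me3 that hold a single site of the authors' table, by merged width in kb, split by the group with the higher mean, rising from 4.14% to 36.4%. Right, the authors' mean in V16D/H19 minus that in V16D/CTL (log2) against merged width for the 194 domains with a single site, 175 of them below 0.

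Single domains gave the range of these means. The largest falls were inside MIR99AHG, from 8.58 in V16D/CTL to 7.47 in V16D/H19 (chr21, 4756 bases wide), and inside KDM6A, from 9.31 to 8.27. EPHA6 went from 11.29 to 10.59, and PTGFR, the prostaglandin F receptor, from 10.80 to 10.01. At CDK1, the mitotic kinase, the means were 10.43 and 9.75, and its peaks covered 5100, 4838 and 4581 bases in V16D/CTL against 3904, 4128 and 3460 in V16D/H19, without overlap and without a call (limma, adjusted p = 0.12). The largest rises were at a domain inside USP54, from 8.97 to 10.11, and at GASK1B, from 7.13 to 8.22. Inside USP54 the highest fold was 24.1, 17.5 and 16.5 in V16D/CTL, against 39.8, 46.6 and 26.3 in V16D/H19, which did not overlap (limma, adjusted p = 0.62).

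Listed sites were lower in V16D/H19 in 25.5% of all domains, and the counts of listed sites below are to be read against that share. Gene lists were read by how many of their genes start in a domain, beside 749 of 19626 protein-coding genes (3.82%). Of 20 luminal prostate genes, 9 did: FOXA1, EHF, HOXB13, TMPRSS2, KLK3, ZBTB10, GRHL2, STEAP2 and XBP1. Another 10 started in other H3K4me3 regions held by all lists. The largest difference among the 9 was at TMPRSS2, an androgen-regulated protease gene, whose domain (7823 bases) was covered over 5482, 5835 and 7169 bases in V16D/CTL and over 7579, 7327 and 7348 bases in V16D/H19. Those groups did not overlap, and the call was not passed (limma, adjusted p = 0.33). A further gene of the list had an alternative RefSeq start in a domain of 8369 bases, with its 5′ end outside any domain. That domain was covered over 8006, 7647 and 7057 bases in V16D/CTL and over 6484, 6382 and 5697 bases in V16D/H19. V16D/H19 was lower there without overlap and without a call (limma, adjusted p = 0.155). No luminal domain was called, the median log2 difference in covered length was −0.06 against −0.01 over all domains with coding genes, and a listed site was lower in 5 and higher in 1, where over all protein-coding genes in domains it was lower in 177 of 749 and higher in 16. KLK3, the gene of prostate-specific antigen, had a low domain with a mean highest fold of 21.8 in V16D/CTL and 30.8 in V16D/H19.

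None of the 18 neuroendocrine and neuronal genes with a known strand started in a domain. Another 10 started in other H3K4me3 regions, and 8 of these regions carried H3K27me3, which the choice of domains removes. None of 11 markers of basal, stromal, immune and endothelial cells started in a domain either, and 1 started in another region. The label of a luminal prostate line can be checked on the luminal list and on these other cell types. Without the H3K27me3 rule, the neuroendocrine list would also have had no gene start in a domain.

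The list of splicing factors had the highest share, 13 of its 26 protein-coding genes. The list also held NEAT1 and MALAT1, noncoding RNAs of paraspeckles and nuclear speckles, in domains of 10390 and 9994 bases. HNRNPA2B1, a ribonucleoprotein that binds pre-mRNA, was in 7515 bases. NEAT1 was covered over 9401, 9044 and 8594 bases in V16D/CTL and over 8081, 8905 and 6434 bases in V16D/H19, with overlap. None of the 15 was called, and 3 held a listed lower site, a share no higher than that of all domains. Ribosomal proteins followed the same course in part, with 18 of 77 (23.4%), RPL28 the widest at 5198 bases, none called and 1 with a listed lower site. Of 24 cell cycle genes only CCND1 (7092 bases) and CDK1 (5378 bases) started in a domain, and both held a listed lower site, as 25.5% of all domains did.

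Of 30 immediate early and stress factors, 8 started in a domain, the widest being BTG1, an antiproliferative gene, at 7880 bases. JUN, a subunit of AP-1, and MCL1, an inhibitor of apoptosis, had 5509 and 4619 bases. None was called, and a listed site was higher in V16D/H19 at 2 (BTG1 and FOSL2) and lower at DDIT4. Of 26 feedback inhibitors of signalling, 5 started in a domain, with DUSP4, a phosphatase of MAP kinases, the widest at 6871 bases, and with SMAD6 and SMAD7, inhibitors of TGF-β and BMP signalling. Both SMAD domains held a listed lower site and none was called.

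Of 24 enzymes and cofactors that write or erase H3K4 and H3K27 methylation, KDM6A, KDM6B, JARID2 and KMT2D started in a domain (16.7%). None was called, and none was counted with a listed site at its start. EZH2, SUZ12 and EED were among the 20 that did not start in a domain. Of 29 other chromatin regulators, 6 did, with BRD2, a bromodomain reader, the widest at 8881 bases, then ARID2, CHD2, SMARCA2, ARID1B and EP300. ARID2 and CHD2 held a listed lower site. Of 29 tumour suppressors, 6 started in a domain, among them BTG1, TXNIP, CDKN1B and FAT1. TXNIP, an inhibitor of thioredoxin, was covered over a mean of 4185 bases in V16D/CTL and 4902 bases in V16D/H19, without a call. At the other end, 1 of 250 zinc finger genes on chromosome 19 (0.4%) started in a domain, ZNF580 at 5161 bases. Another 205 started in narrower regions without H3K27me3 that all lists held.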

How the data were processed

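H3K4me3 and H3K27me3 were profiled by ChIP-seq (75-base single-end reads) in 3 V16D/CTL and 3 V16D/H19 replicates with 6 inputs. Per the labels, the build was hg38. The authors called peaks per library with MACS2 against the input, narrow for H3K4me3 and broad for H3K27me3. For each peak the deposited lists hold a score, the linear ratio of ChIP to input (fold) and p-values and q-values as −log10. The authors' DiffBind tables, annotated with ChIPseeker, hold log2 concentrations per group beside folds and p-values. Only the 2 H3K4me3 concentrations, the authors' means, were used. Pellets combined all dishes of a replicate. Depth in reads was not analysed here, and intervals for counting error could not be given. Lists were therefore also compared at equal length.

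Peaks were merged at 1 base of overlap. limma 3.58.1 (R 4.3.3, eBayes with trend) compared V16D/H19 with V16D/CTL across 15760 regions, on log2 of the highest fold (library medians centred) and on log2 of the covered length (not centred), at an adjusted p of 0.05. Library values were compared by two-sided exact permutation over 20 assignments. The highest-fold fit was tested on simulated data. Python 3.11.15 built the tables. Starts were 5′ ends of RefSeq genes (GRCh38.p14), with a strand from the RefSeq promoter table or, by symbol, GENCODE, for 19626 of 19970 protein-coding genes (98.3%). The domains, gene lists and tests were chosen with earlier results of these data known. Named domains were the 10 widest, those called, the widest of each gene list, 3 on each side of 4000 bases, those with most or no starts. Others (microRNA domains, divided domains, the extremes of the authors' means, further list members) were named after their values were seen.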

Additional observations from a re-analysis of the deposited data

How the results depend on the processing

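The number of domains was 2536 at a width of at least 3000 bases, 242 at 5000 and 448 where each group alone reached 4000 bases, and stayed within 1.5 times of 687 otherwise (638 to 670 without 1 library). No domain was called for highest fold under any of 18 alternatives, among them the replicate block (0). Calls for covered length went from 5 to 9 with H3K4me3 peaks of −log10 q of at least 5 (4 longer, 5 shorter), 11 at 3000 bases, 2 at 5000 and 2 where each group alone reached 4000, 13 with median centring (7 longer, 6 shorter), 15 with cyclic loess (9 longer, 6 shorter) and 3 with no trend in the prior, and ran from 3 to 10 when 1 library was left out, 10 being without V16D/H19 replicate 3. They were 3 without V16D/CTL replicate 2 or 3 or V16D/H19 replicate 1. EPHA6 kept its call in 12 of 12 alternatives that kept the domains, with log2 differences of −0.84 to −0.75 when 1 library was left out, and ASPH kept it in 3. For ZNF703, GASK1B and the domain inside FDFT1 the choice of domains fixes the direction, so their calls say nothing of stability.

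The difference in total covered length ran from −0.0612 to 0.0298 Mb when 1 library was left out, turning without V16D/H19 replicate 3. The difference in relative highest fold, 0.00414, turned to −0.000187 with −log10 q of at least 5 and to −0.00569 with peaks up to 500 bases apart merged, and ran from −0.00907 to 0.0132 without 1 library. Where each group alone reached 4000 bases it was 0.0324 (exact p = 0.1), and its exact p was 0.5 or more in the 12 others. The difference in median highest fold kept its sign in 13 of 13 alternatives. The difference in peaks per domain, 0.0951, kept its sign in 13 of 13, at 0.0539 with lists of equal length and 0.0718 to 0.113 without 1 library. The cause of these changes was not tested.

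The replicate numbers did not pair the libraries. Same-numbered V16D/CTL and V16D/H19 libraries deviated from their group means with correlations of −0.0232 to 0.0208 in covered length and −0.000976 to 0.0257 in highest fold. With the replicate block, 4 domains were called for covered length (3 longer, 1 shorter), 3 of them among the 5. In both measures V16D/CTL replicate 1 correlated best with V16D/H19 replicate 2. The alternatives for the called domains and for the excess of peaks, and the limit in each group alone, were chosen after seeing the data. Depth was not used here, and 3 libraries a group limited what could be called.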

Other observations

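The 24 H3K4me3 regions of 4000 bases or more that overlapped an H3K27me3 peak, and so are not among the 687 domains, divided by how many H3K27me3 lists agreed. In 5 of them all 6 lists held a peak, at PCDH7, a protocadherin, ALOXE3, a lipoxygenase, IGF1R, the receptor of insulin-like growth factor 1, NR4A3, an orphan nuclear receptor, and PFKFB3-AS1, an antisense RNA. In 6 the peak was in 1 list. At EPHA7, another ephrin receptor, and at NR2F1, an orphan nuclear receptor, all 3 V16D/H19 lists and none of the V16D/CTL lists held an H3K27me3 peak, with a highest fold over input of 3.61 and 3.99. These names were chosen after their values were seen, no test was made, and H3K27me3 lists held 54951 to 72171 peaks.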
